A study of Mus musculus with 2 samples.

Results

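Bidirectional promoter regions are stretches of accessible chromatin near head-to-head starts of 2 protein-coding genes, on opposite strands and transcribed away from each other. Among 29415 accessible regions of mouse regulatory T (Treg) cells, 1020 (3.47%) met this description. They held 987 gene pairs and 1941 genes, 8.88% of the 21853 protein-coding genes with an annotated coding start. A region was counted when its summit lay within 1000 bp of a coding transcript start of both genes and these starts were at most 1000 bp apart (GENCODE M21, mm10). In 339 of the 1020 regions the gene records overlap at their 5′ ends, so only alternative starts are divergent. Whether a region serves both genes was not measured. The rule uses the position of the summit and the annotation. Fold enrichment enters it by placing the summit at the strongest peak of a region. Of all 10802 regions with a summit within 1000 bp of a coding start, called promoter regions below, bidirectional regions made up 9.44% (95% exact binomial interval 8.90 to 10.01).

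The data come from ATAC-seq, in which the transposase Tn5 cuts and tags open DNA. Treg cells, a class of CD4 T cells that depend on Foxp3 and restrain immune responses, were inflammation-experienced cells of a male mouse aged 6 months that carried Foxp3CreERT2 and Rosa26YFP. The first allele expresses a tamoxifen-inducible Cre from the Foxp3 locus, and the second turns on a yellow fluorescent reporter where Cre has acted. There was 1 group with 1 biological replicate, sequenced as 2 technical replicates that the deposited lists do not separate. No value below therefore has a spread over animals, and no test across samples could be made. Exact binomial intervals for shares and order-statistic intervals for medians, both at 95%, cover only the counting of regions, and neighbouring or paralogous genes are not independent. Read depth was not given in the files. Of 10 T and Treg cell genes, 9 had an accessible region over a coding start, and Foxp3 was the exception. None of the 10 marker genes of other cells did, a list that included Cd8a and Csf1r. Cd8b1, the other CD8 chain and not on that list, had a region over a coding start.

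In a head-to-head arrangement the short stretch between the starts acts as the upstream sequence of both genes at once, and most such promoters in mammals lie in CpG islands. RNA polymerase II initiates at both edges of a shared nucleosome-poor stretch, and the first nucleosomes of each gene flank it. Many pairs encode proteins for tasks that every cell carries out, such as DNA repair, mitochondrial translation or chromatin assembly, and the partners need not share a function.

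The stretch between the starts was short enough to print. The first 5 sequences below were chosen by a rule: members of greatest fold enrichment whose starts lie 40 to 300 bp apart with no annotated exon between them, a condition met by 440 members. Next comes a textbook pair with the same properties, and the last lines add a histone pair and an interferon-response pair chosen after their values were seen. All are on the plus strand of GRCm38 (mm10), so the first gene named runs to the left from the first base and the second to the right from the last base. Capitals mark matches, on either strand, to 5 motifs. CCAAT is the box read by NF-Y. The GC box of SP and KLF factors was searched as GGGCGG. For the TATA box the letters were TATAAA. GAAANNGAA stands for the interferon-stimulated response element. TACATTTCC is a variant of the letters read by ZNF143 and THAP11. GAAANNGAA and TACATTTCC were added to the search after sequences had been read, and overlapping matches share 1 run of capitals. A match is a description of the letters and does not show that a factor binds. The intervals are chr4:107066869-107066987 between Mrpl37 and Cyb5rl, chr7:24546119-24546288 between Pinlyp and Xrcc1, chr1:74601398-74601444 between Rnf25 and Stk36, chr6:3498299-3498381 between Hepacam2 and Vps50, and chr4:49521094-49521175 between Mrpl50 and Zfp189. Those of the other pairs are chr11:69580256-69580358 for Wrap53 and Trp53, chr13:23683949-23684198 for Hist1h2ac and Hist1h2bc, and chr19:34640744-34640870 for Ifit1bl2 and Ifit1.
Mrpl37/Cyb5rl: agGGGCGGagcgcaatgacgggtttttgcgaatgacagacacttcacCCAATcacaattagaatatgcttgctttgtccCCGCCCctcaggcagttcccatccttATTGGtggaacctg
Pinlyp/Xrcc1: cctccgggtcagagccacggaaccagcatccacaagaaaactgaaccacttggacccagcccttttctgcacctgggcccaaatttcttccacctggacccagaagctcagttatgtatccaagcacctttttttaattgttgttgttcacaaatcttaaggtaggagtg
Rnf25/Stk36: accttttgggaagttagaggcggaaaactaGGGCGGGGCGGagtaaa
Hepacam2/Vps50: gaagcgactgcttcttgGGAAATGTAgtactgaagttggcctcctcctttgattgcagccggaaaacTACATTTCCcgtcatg
Mrpl50/Zfp189: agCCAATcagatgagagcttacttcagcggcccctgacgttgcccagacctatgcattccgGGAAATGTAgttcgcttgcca
Wrap53/Trp53: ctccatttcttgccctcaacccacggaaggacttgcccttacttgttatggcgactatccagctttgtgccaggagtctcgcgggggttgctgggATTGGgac
Hist1h2ac/Hist1h2bc: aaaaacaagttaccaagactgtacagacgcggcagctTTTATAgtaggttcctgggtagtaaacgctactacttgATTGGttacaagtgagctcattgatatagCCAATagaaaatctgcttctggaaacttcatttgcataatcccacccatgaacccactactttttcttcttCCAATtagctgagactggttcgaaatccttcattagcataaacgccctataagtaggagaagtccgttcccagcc
Ifit1bl2/Ifit1: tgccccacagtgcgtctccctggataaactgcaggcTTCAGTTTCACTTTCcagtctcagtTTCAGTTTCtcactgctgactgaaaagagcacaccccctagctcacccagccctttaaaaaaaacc

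The sequences differ in base composition and in the motifs they hold. Between Mrpl37, a protein of the mitochondrial ribosome, and Cyb5rl, 119 bases held 2 CCAAT boxes and 2 GC boxes. The 47 bases between Rnf25 and Stk36 held 2 overlapping GC boxes and no CCAAT. The 119 bases of Mrpl37/Cyb5rl contained 5 CG dinucleotides, while the 127 bases between Ifit1bl2 and Ifit1 contained 1. In the Ifit1 stretch the capitals mark 3 matches to the interferon element, a pair of them overlapping in 1 run. No CCAAT or GC box was found there. TACATTTCC occurred 2 times between Hepacam2 and Vps50, a subunit of endosomal tethering complexes, and 1 time between Mrpl50 and Zfp189. The stretch between Pinlyp and Xrcc1 had no match to any motif searched, and the accessible region assigned to this pair lies beyond it, 891 bp from the farther start at its summit.

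Accessibility was the rule at head-to-head pairs. The annotation holds 1096 pairs of coding genes with divergent starts at most 1000 bp apart, and 979 of them (89.3%, interval 87.3 to 91.1) had an accessible region over the span between the starts. The background share was 42.6%, that of the 19697 coding genes in no such pair with a region over a coding start. Counted per gene, 1930 of 2156 paired genes (89.5%) had a region over a start of their own. Genes without a coding partner but with a divergent noncoding start lay between, at 67.8% (856 of 1262). For 910 of the 979 open pairs (93.0%), 1 region covered both starts, and 946 pairs had a region over a start of both genes. A paired gene has its partner's start close by, so the 2 genes of a pair are not separate observations.

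Pairs lie in CpG-rich sequence, and CpG content moved with accessibility. The CpG observed over expected ratio, taken over 500 bp on either side of the midpoint, had a median of 0.783 in open pairs and 0.345 in the 117 closed pairs. In the upper 2 quintiles of this ratio, 94.8% and 97.8% of pairs were open, beside 71.2% and 80.5% of other genes. In the middle quintile the shares were 82.7% of 197 pairs and 45.9% of 3962 other genes. In the second quintile they were 14.9% of 47 pairs (6.20 to 28.3) and 16.1% of 4111 genes, intervals that overlap. The lowest quintile held 16 pairs, 3 of them open. The intervals of pairs and other genes thus stood apart in the upper 3 quintiles, and the lowest held too few pairs to judge.

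**Figure D1:**
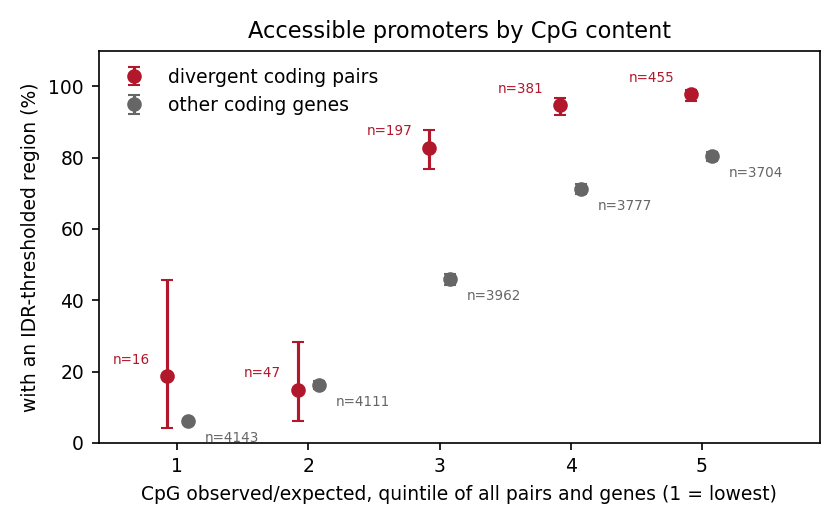
Share of divergent coding pairs and of other coding genes with an accessible region, by quintile of the CpG observed over expected ratio of the promoter; bars are 95% exact binomial intervals and n is the number of pairs or genes. Pairs lie above other genes in quintiles 3 to 5 (82.7%, 94.8% and 97.8% against 45.9%, 71.2% and 80.5%). The intervals overlap in the lowest and the second.

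Closed pairs were found at short distances too. Of 117, 25 had a region only in the more permissive pseudoreplicated list, 1 only in the ranked list and 91 in none. Among the 91 the shortest distances were those of Fam186b/Prpf40b (7 bp), Lrrc34/Lrriq4 (17 bp), Plcd3/Acbd4 (24 bp) and Best1/Rab3il1 (36 bp), where Best1 encodes a chloride channel of the retinal pigment epithelium. Closed refers to the span between the starts: 11 of the 117 pairs are members through a region beside it, Fam186b/Prpf40b among them with a region of fold 11.3 whose summit lay 624 bp from the farther start. Among Fam186b/Prpf40b, Lrrc34/Lrriq4, Plcd3/Acbd4 and Best1/Rab3il1, CpG ratios ran from 0.10 at Best1/Rab3il1 to 0.70 at Plcd3/Acbd4. High CpG content alone did not go with accessibility at Tmem200a/Gm9767 (0.76) or Ppp1r3d/Fam217b (0.78). Rnf151/Rps2 (53 bp) also had no region over the span. Rps2 encodes a protein of the small ribosomal subunit, and the CpG ratio there was 0.16.

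Foxp3, the gene that defines Treg cells, lies head to head with Ppp1r3f, a regulatory subunit of protein phosphatase 1, at 801 bp on the X chromosome, and this pair did not yield a bidirectional region. A region of fold 4.42 and 489 bp covered the Ppp1r3f start, with its summit 1045 bp upstream of the Foxp3 coding start. A second region of fold 9.62 had its summit 1157 bp downstream of that start. Neither covered the annotated coding start of Foxp3.

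Summits often lay in or near the space between the starts. The rule itself requires a summit within 1000 bp of both starts, so summit position is bounded by the choice of members. The summit, the position of greatest enrichment, lay between the starts in 568 of 1020 regions (55.7%, 52.6 to 58.8). Of the remainder, 224 summits lay on the side of the minus-strand gene and 228 on that of the plus-strand gene. The share between the starts was 25.3% (19.1 to 32.2) for starts 1 to 50 bp apart. It was 47.5% at 51 to 100 bp and 66.8% to 76.1% in the classes of longer distance. A longer space holds more positions, so a rise with distance is partly set by geometry. The median summit was 54.25 bp from the midpoint, and 645 summits (63.2%) were within 100 bp of it. Both starts were covered by 890 regions (87.3%), 1 start by 75 and neither by 55. Where both were covered, the region reached a median of 444 bp into the genes (interquartile range 293 to 579.2), 442.5 bp past the minus-strand start and 445.5 bp past the plus-strand start. Which gene of a pair lies on the plus strand is arbitrary, so totals by strand come out even in any case. They do not show whether single regions reached equally far into both genes, and this was not measured.

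**Figure D2:**
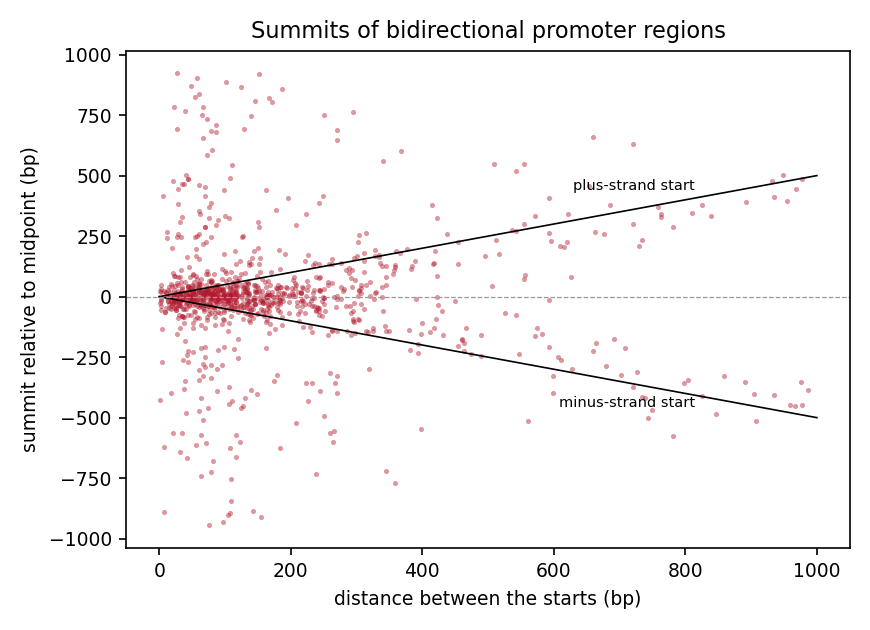
Each point is 1 of the 1020 bidirectional regions: the distance between the starts (bp, horizontal) against the position of the summit relative to the midpoint (bp, vertical, positive towards the plus-strand gene). Black lines mark the starts, and 645 points lie within 100 bp of the midpoint.

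The distance between the starts had a median of 117 bp (interquartile range 64 to 235) and ran from 1 to 987 bp. It was at most 200 bp in 716 regions (70.2%) and above 500 bp in 84 (8.24%). The 3 pairs of shortest distance, at 1 bp, were Dcun1d3/Lyrm1 (fold 21.3), Bag4/Lsm1 (18.1) and Arfrp1/Zgpat (13.1). Bag4 encodes a co-chaperone and Lsm1 a protein of messenger RNA decay. The pair of longest distance, Btf3l4/Txndc12 at 987 bp, had 1 region of 2044 bp with 8 summits that covered both starts. Zfyve26/Rad51b, at 978 bp, instead had 2 separate regions of 719 and 652 bp, and neither covered both starts. Pairs of similar distance were thus open either as 1 long region or as 2 shorter ones.

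Width did not follow the distance between the starts. Median widths were 1007.5 bp for starts 1 to 50 bp apart, 1023 bp for 51 to 100 bp and 963 bp for 101 to 200 bp. They were 947, 1059.5 and 922.5 bp at 201 to 300, 301 to 500 and 501 to 1000 bp, and the Spearman correlation over the 1020 regions was -0.03. Among regions that cover both starts, the median reach past a start was 493.5 bp at 1 to 50 bp (n = 173). It was 294 bp at 501 to 1000 bp (n = 26). In such a region the width is made up of the distance between the starts and the reach on both sides. With width nearly even, reach must therefore fall as the distance grows, so this is no separate result. The share of regions that covered both starts was 95.1%, 95.3%, 91.3%, 88.3% and 87.0% in the first 5 classes and 31.0% (21.3 to 42.0) at 501 to 1000 bp. The median distance of the summit from the midpoint rose from 39 bp to 332 bp. A summit at a start lies farther from the midpoint the longer the distance, so this rise is partly geometric. In the longest class the median distance to the nearer start was 65.5 bp, so the summit of widely spaced pairs was near 1 of the starts. The fold had medians of 17.0 to 17.5 in the first 5 classes and 14.2 in the longest.

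**Figure D3:**
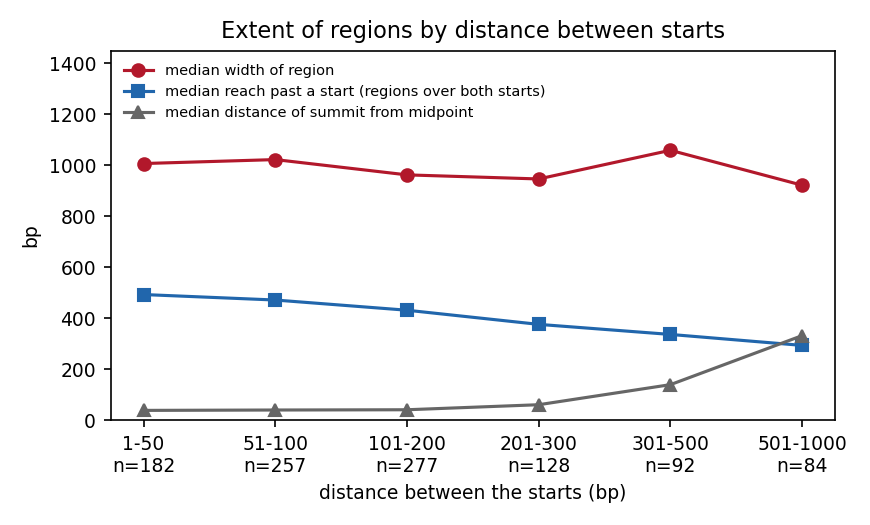
Median width, median reach past a start and median distance of the summit from the midpoint (all in bp) by the distance between the starts; n is the number of bidirectional regions. Width stays between 922.5 and 1059.5 bp, while reach falls from 493.5 to 294 bp and the distance from the midpoint rises from 39 to 332 bp. Reach is taken over regions that cover both starts (173 in the first class, 26 in the last). At even width it must fall with distance.

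More than 1 summit was called in 885 regions (86.8%, 84.5 to 88.8). Among these, 624 (70.5%) had summits on both sides of the midpoint, and 454 (51.3%) had 1 beyond each start, inside both genes. Only 135 regions had a single summit, and it lay between the starts in 62 of them. Promoter regions with coding starts in 1 direction had more than 1 summit in 78.0% of cases (77.1 to 78.9), and those with a coding and a divergent noncoding start in 83.9% (81.3 to 86.3). In 146 regions with coding starts on both strands that were not divergent, the share was 87.0% (80.4 to 92.0). From the lowest to the highest quintile of CpG content, bidirectional shares were 69.2%, 83.2%, 83.1%, 90.4% and 93.8%. Those of 1 direction were 59.0%, 77.6%, 84.1%, 85.4% and 87.7%. The number of summits also moved with width, which is given next.

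Bidirectional regions were stronger and wider than promoter regions of 1 direction. The fold enrichment over background, as the authors' peak caller gave it, had a median of 17.0 (16.7 to 17.4, n = 1020) in bidirectional regions and 15.2 (15.03 to 15.4, n = 8777) in regions of 1 direction. Regions that pair a coding with a divergent noncoding start had the same median as the latter, 15.2 (14.7 to 15.9, n = 859). Median widths were 993.5 bp (973 to 1020), 887 bp (878 to 895) and 984 bp (957 to 1002) in that order. A noncoding partner thus went with the greater width but not with the greater fold. The remaining 146 promoter regions held coding starts on both strands that were not divergent within the limit. Their median fold was 15.5 (13.2 to 16.9) and their median width 975 bp (888 to 1060). The greater width was thus not particular to bidirectional regions.

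The difference in fold was clearest at the lower end of the range. A fold below 8 was found in 5.20% of bidirectional regions and 12.9% of regions of 1 direction, and a fold of 20 or more in 30.0% and 23.8%. The greatest single values were not bidirectional: the maximum was 31.6 in the former and 37.9 in the latter. Restricted to the upper 50% of all regions by fold, the medians were 18.8 and 18.5. Within quintiles of CpG content over all promoter regions the bidirectional medians were 17.97, 18.5, 17.8 and 15.4 from the second to the highest, beside 16.4, 16.6, 16.2 and 14.2. In the lowest quintile, with 65 bidirectional regions, they were 12.3 (10.4 to 16) and 12.6. CpG content itself differed: 51.3% of bidirectional regions but 37.1% of those of 1 direction fell in the upper 2 quintiles. Widths by CpG quintile were 729, 936.5, 984.5, 1049.5 and 1063 bp beside 669.5, 843, 922.5, 987 and 1044 bp, so the difference was smallest in the most CpG-rich quintile.

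**Figure D4:**
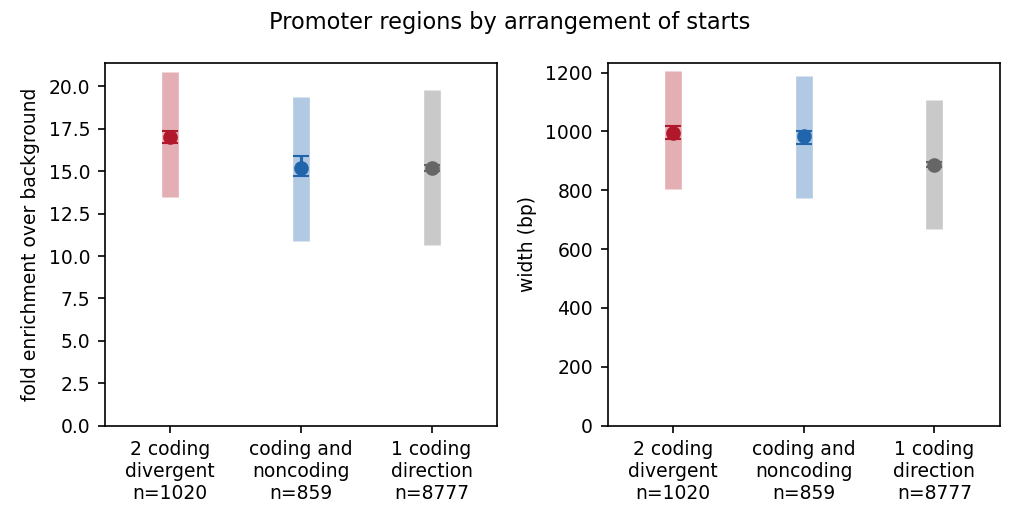
Fold enrichment (left) and width in bp (right) of promoter regions with 2 divergent coding starts, with a coding and a divergent noncoding start, and with coding starts in 1 direction. Points are medians with 95% order-statistic intervals and bands are interquartile ranges; the bidirectional median fold of 17.0 lies above 15.2 in both other classes.

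The member of greatest fold was Cep128/Tshr (31.6, 1076 bp, 4 summits) on chromosome 12, where Cep128 encodes a centrosome protein and Tshr the receptor of thyroid-stimulating hormone. Arl16/Hgs followed at 30.2, and Hgs encodes a sorting protein of endosomes. Cdca8/9930104L06Rik (30.0) and Trmt6/Mcm8 (29.5) hold a subunit of the chromosomal passenger complex and a helicase of DNA repair. Atg9a/Ankzf1 (28.6), Pld3/2310022A10Rik (28.0) and Calr3/1700030K09Rik (27.8) complete the 12 strongest with the 5 printed pairs Mrpl37/Cyb5rl (30.0), Pinlyp/Xrcc1 (29.0), Rnf25/Stk36 (28.8), Hepacam2/Vps50 (28.4) and Mrpl50/Zfp189 (27.8). Of these 12 regions, 11 covered both starts. Spata1/Gng5, the widest at 2082 bp, had a fold of 8.53, and Snx25/Cfap97, at 1977 bp, had 10.7. Over all members fold and width had a Spearman correlation of -0.06. The median width was 591.5 bp in the weakest quintile of fold over all promoter regions, 1121 bp in the second and 933 bp in the strongest.

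The 6 weakest members were all single-summit regions of 179 to 269 bp that did not cover both starts. Among them were Nfya/Oard1 (2.93), Pip4p1/Pnp (3.21), Brd2/H2-DMa (3.54), Pgm3/Rwdd2a (3.67) and Sirt1/Dnajc12 (3.70). Nfya encodes a subunit of NF-Y, the factor that reads CCAAT. Such small regions often lie beside a larger one of the same pair: 61 pairs had more than 1 member region, and the 120 regions that share a pair with another had a median fold of 10.7 and width of 622.5 bp, beside 17.5 and 1041 bp for the 900 that were alone. At the limits of the rule, Btf3l4/Txndc12 (987 bp between starts) lay just inside and Nacc1/Trmt1 (1004 bp, fold 12.2) just outside. For the distance of the summit, Hras/Lrrc56 (994 bp from the farther start, fold 8.65) lay just inside and Hnrnpdl/Enoph1 (1010 bp, fold 7.25) just outside.

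Among the letters at the summits, ETS and CCAAT matches differed most between bidirectional regions and those of 1 direction. Within 100 bp of the summit on either strand, CCGGAAG, read by ETS factors such as GABPA, occurred in 27.8% of bidirectional regions (25.1 to 30.7). It occurred in 20.5% (17.8 to 23.3) of regions with a noncoding partner, in 17.0% (16.3 to 17.8) of those of 1 direction and in 18.4% of all promoter regions. CCAAT occurred in 40.3% (37.3 to 43.4), 36.3% (33.1 to 39.6) and 32.9% (31.9 to 33.9), and in 33.9% of all. AAGATGGC, read by YY1, was found in 5.69% (4.35 to 7.29), 3.38% and 4.0% (3.60 to 4.43), and in 4.13% of all. The intervals of bidirectional regions and those of 1 direction did not overlap for ETS and CCAAT and overlapped for YY1. Within 250 bp of the summit they did not overlap for YY1 either, at 11.3% (9.40 to 13.4) and 6.72% (6.21 to 7.27). ETS matches were more frequent in each of the upper 3 CpG quintiles, at 30.2%, 30.1% and 26.1% beside 20.9%, 19.6% and 17.5%. CCAAT was found in 44.2%, 41.5% and 36.1% beside 35.6%, 35.3% and 29.8% in these quintiles, and its intervals overlapped in each of the 5.

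The GC box was the most frequent match, at 61.7% (58.6 to 64.7) of bidirectional regions, 66.1% of those with a noncoding partner, 58.7% (57.7 to 59.7) of those of 1 direction and 59.5% of all promoter regions. Within 50 bp the order turned, at 41.4% of bidirectional regions and 42.4% of those of 1 direction, with intervals that overlap. It turned too in the upper 3 CpG quintiles: in the most CpG-rich quintile, 64.3% of bidirectional regions (57.9 to 70.4) and 74.7% of regions of 1 direction (72.5 to 76.8) had one. TGANTCA, read by AP-1, which is active in stimulated T cells, was found in 2.16% (1.36 to 3.25) beside 3.81% (3.41 to 4.23), with 3.56% of all. TGTGGTT, read by RUNX factors, was found in 1.86% (1.13 to 2.89) beside 3.49% (3.11 to 3.89), with 3.18% of all. In the lowest CpG quintile AP-1 was found in 2 of 65 bidirectional regions (3.08%, 0.375 to 10.7) beside 8.40% of those of 1 direction (7.22 to 9.71). For RUNX the values there were 1 of 65 (1.54%, 0.0389 to 8.28) beside 9.0% (7.78 to 10.3), and the intervals overlapped for both. That quintile held 6.37% of bidirectional regions and 22.7% of those of 1 direction. From the second to the highest quintile RUNX was found in 2.63%, 1.65%, 2.13% and 1.24% beside 2.06%, 2.02%, 1.96% and 1.41%. For AP-1 the values were 3.16%, 1.65%, 1.77% and 2.07% beside 2.84%, 2.76%, 2.08% and 2.09%. The CTCF motif was found in 1.86% and 3.35%, with 3.17% of all.

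The remaining motifs were within overlapping intervals of bidirectional regions and those of 1 direction, or rare. TGCGCATGC (NRF1) was found in 2.16% and 2.36%, TGACGTCA (CREB and ATF) in 4.51% and 3.67%, and CACGTG (USF and MYC) in 8.92% and 8.44%, with 2.35%, 3.78% and 8.59% of all promoter regions. CTCGCGAG (ZBTB33) was found in 2.55% and 1.63%, TACAATTCC (ZNF143 and THAP11) in 1.27% and 0.729%, and TATAAA in 2.65% and 2.93%, with 1.78%, 0.741% and 2.81% of all. The variant TACATTTCC was found in 24 bidirectional regions (2.35%, 1.51 to 3.48), in 1.17% (0.959 to 1.42) of those of 1 direction and in 1.26% of all promoter regions. Because it was searched after being seen in printed members, its share is a description of these members only. GAAANNGAA was found in 4.51% and 5.14%, with 4.99% of all.

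**Figure D5:**
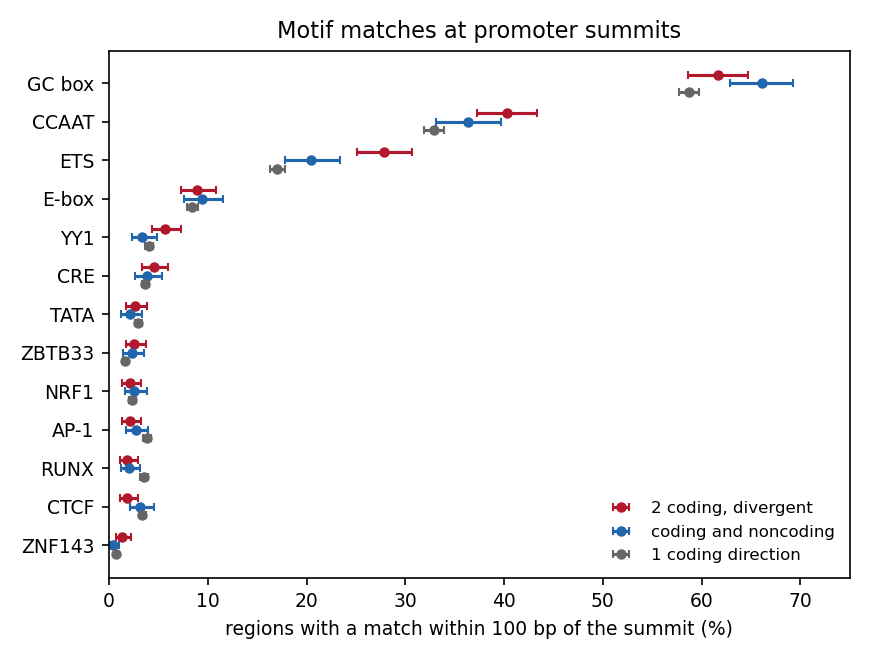
Share of promoter regions with a match to each of 13 motifs within 100 bp of the summit, for regions with 2 divergent coding starts, a coding and a divergent noncoding start, or coding starts in 1 direction; bars are 95% exact binomial intervals. ETS (27.8% against 17.0%) and CCAAT (40.3% against 32.9%) are more frequent in bidirectional regions, RUNX (1.86% against 3.49%) less frequent. CpG content is not held equal here, and the order for RUNX varied between CpG quintiles.

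Motifs also had a place. Over 977 regions with starts at least 21 bp apart, matches per 10 kb were counted between the starts and in the first 150 bp of both genes. CCAAT was 3.83 times as dense between the starts (37.5 against 9.79 per 10 kb) and the GC box 1.81 times (56.2 against 31.0). ETS was nearly even at 1.31 times (10.2 against 7.85). YY1 was the reverse, at 1.12 per 10 kb between the starts and 3.17 inside the genes. The base composition of both stretches was close, at 59.8% and 62.5% G or C. Regions with a CCAAT match near the summit had a median fold of 18.5 (17.8 to 19.3, n = 411) and those without one of 16.3 (15.8 to 16.7, n = 609). For ETS the medians were 18.2 and 16.7. In regions of 1 direction the same contrast was 17.6 with and 14.1 without CCAAT, a difference in the same direction.

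Genes for DNA repair were often members: 32 of 88 (36.4%), where 8.87% of all genes with a listed symbol were. By annotation, 33 of the 88 (37.5%) lie in a divergent pair, beside 9.86% of all genes. The excess among members was thus already present in the annotated arrangement of the genes. The accessible partners of repair genes range widely. Ankrd49/Mre11a (fold 26.7) holds a nuclease subunit of the double-strand break sensor, Xrcc4/Tmem167 (24.3) a ligase cofactor of end joining, and Hscb/Chek2 (23.8) a checkpoint kinase. Toe1/Mutyh (23.5) holds a glycosylase of base excision repair. Brca1/Nbr1 (16.8, 270 bp) and Atm/Npat (20.03, 307 bp) are textbook pairs of this kind. The repair gene in a divergent pair that was no member was Mad2l2, whose pair Draxin/Mad2l2 (217 bp) had no region over the span despite a CpG ratio of 0.80. These lists were described by counts alone, and 98.9% of the repair genes had an open start, beside 47.3% of all genes.

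Proteins of the mitochondrial ribosome gave 26 of 78 genes (33.3%) and oxidative phosphorylation 30 of 93 (32.3%). The aminoacyl-tRNA synthetases, cytosolic and mitochondrial, gave 8 of 36 (22.2%), and the share over all genes was 8.87%. In these 3 lists 97.4%, 91.4% and 100% of genes had an open start, beside 47.3% of all genes. By annotation, 33.3%, 33.3% and 22.2% of them lie in a divergent pair, beside 9.86% of all genes. Mrpl46/Mrps11 (fold 25.9, 30 bp) is a pair with both partners in the mitochondrial ribosome. Hars/Hars2 (24.5, 26 bp) pairs the cytosolic and the mitochondrial histidyl-tRNA synthetase, and Mrps12/Sars2 (24.1, 182 bp) a mitochondrial ribosomal protein with the mitochondrial seryl-tRNA synthetase. Of the respiratory chain genes, Uqcr10/Zmat5 (24.8) and Ndufa2/Ik (24.8) had high fold, with partners outside the chain. Hspd1/Hspe1 (13.9, 108 bp, 1422 bp wide) encodes both parts of the mitochondrial chaperonin.

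Splicing factors (20 of 67, 29.9%), proteasome subunits (11 of 50, 22.0%) and cell cycle and replication genes (18 of 82, 22.0%) are further groups among the members, beside 8.87% of all genes. By annotation, the same 29.9%, 22.0% and 22.0% lie in a divergent pair, beside 9.86% of all genes. Orc3/Rars2 (25.2, 13 bp) and Prpf38a/Orc1 (23.4, 118 bp) hold subunits of the origin recognition complex, Rpa3/Umad1 (23.9) and Rpa1/Smyd4 (22.3) those of the single-strand binding protein RPA. Mcm4/Prkdc (17.2, 489 bp, 1400 bp wide) joins a replicative helicase subunit with the kinase of end joining. Among proteasome genes AY074887/Psma4 had 26.0, Psmd10/Atg4a 25.1 and Sirt3/Psmd13 21.6. Cytosolic ribosomal proteins gave 12 of 82 (14.6%), Rpl9/Lias (22.4) the strongest of them, and 13 of the 82 (15.9%) lie in a divergent pair. Zinc finger genes named Zfp gave 24 of 394 (6.09%), and olfactory receptors, of which 2 had an open start, gave 0 of 1133 and lie in no divergent pair.

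Histone genes were a group of their own among the members. By annotation, 27 of 102 histone genes (26.5%) lie in a divergent pair, beside 9.86% of all genes. They gave 25 of 102 genes (24.5%, beside 8.87% of all genes) in 15 regions. In 12 pairs both partners were histone genes, mostly an H2A gene opposite an H2B gene. Their starts were far apart, with a median of 251 bp, and their regions narrow, with a median of 759 bp. The strongest were Hist1h2ah/Hist1h2bk (fold 27.6, 302 bp), Hist1h2ac/Hist1h2bc (22.4, 251 bp) and Hist1h2ak/Hist1h2bn (19.6, 296 bp), all on chromosome 13. CCAAT lay within 100 bp of the summit in 14 of the 15 regions (93.3%, beside 40.3% of all members) and TATAAA in 10, of 27 such regions among all 1020 members. The GC box lay in 0 of 15, beside 61.7% of all members. The printed stretch between Hist1h2ac and Hist1h2bc holds 3 CCAAT boxes and 1 TATA box. Histone genes are near copies of each other, so the matches are not independent and reads may be shared between copies. Hist1h2ba/Hist1h2aa, a pair of testis variants, had no region over its span of 306 bp at a CpG ratio of 0.77.

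Regions of cytosolic ribosomal protein genes held CCAAT in 1 of 13 cases (7.69%, beside 40.3% of all members) and the GC box in 8 (61.5%, beside 61.7%). Proteins of the mitochondrial ribosome were close to all members, with CCAAT in 10 of 27 (37.0%) and ETS in 8 (29.6%). For oxidative phosphorylation, CCAAT was found in 10 of 30 regions and ETS in 9.

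Genes of T cells and immune signalling gave 11 of 225 genes in members (4.89%, beside 8.87% of all genes). An open start was found in 84.4% of the 225, beside 47.3% of all genes. Of the 225, 12 (5.33%) lie in a divergent pair, beside 9.86% of all genes. Ifit1bl2/Ifit1, genes induced by interferon, had the greatest fold of these, 26.5 in 623 bp with a single summit between the starts. Its CpG ratio was 0.14, beside a median of 0.779 in all members. Tctn3/Entpd1 followed at 25.03, and Entpd1 encodes CD39, an ectonucleotidase on the surface of Treg cells. Nfkbib/Sirt2 (19.9), Ikzf5/Acadsb (19.8), Bcl2l12/Irf3 (18.4) and Serpinb6a/Ripk1 (17.95) pair a signalling or transcription regulator with a gene of another kind.

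Psmb9/Tap1 (16.5, 38 bp) is the one pair with both partners in the immune list, an immunoproteasome subunit and a peptide transporter of antigen presentation. Plgrkt/Cd274 (13.3, 147 bp) holds the ligand PD-L1. Park7/Tnfrsf9 had 2 regions, of fold 8.43 over both starts and 6.83 inside the Tnfrsf9 side, and Tnfrsf9 encodes the costimulatory receptor 4-1BB. Smyd1/Cd8b1 (8.98, 555 bp) had a CpG ratio of 0.22 and 4 summits, and its region covered the Cd8b1 start but not the Smyd1 start. Its −log10 p was 26.2, beside 25.8 at Nfya/Oard1, the member of lowest fold. Cd8b1 encodes the CD8 beta chain of cytotoxic T cells, while Cd8a had no region over a coding start. Whether these came from all cells or a few could not be told apart in bulk data.

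Of the 17 textbook entries, 10 were members. Examples beside those above were Psmb1/Tbp (15.7, 137 bp), Surf1/Surf2 (19.2, 22 bp) and Wrap53/Trp53. Trp53 encodes the tumour suppressor p53, and its pair was weak, with 2 regions of fold 7.22 and 7.85. Col4a4/Col4a3 (127 bp), which encode collagen chains of basement membranes, had no region in any list. Paics/Ppat was not counted because its annotated starts overlap by 196 bp, but both genes had a region over a start, of fold 15.5. The T cell receptor genes Cd3d/Cd3g lie 1355 bp apart, beyond the limit, and a region of fold 15.4 covered a start of Cd3g alone.

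Members were spread over the genome. The share of coding genes in a member was greatest on chromosome 12 (13.2%, 85 of 642) and chromosome 17 (12.01%, 126 of 1049). It was lowest on the Y chromosome, with 0 of 183, and on the X chromosome, with 4.64% (44 of 948). Over all chromosomes it was 8.88%. Genes in annotated divergent pairs were not counted by chromosome, so these shares do not separate gene layout from accessibility. The values were close between the 2 sets of reads that the authors ranked against each other: in the authors' deposited table the −log10 p of both sets agreed within 2-fold in 1018 of 1020 regions (99.8%), beside 99.1% of regions of 1 direction and 99.2% of those with a noncoding partner. The top score of 1000 was held by 92.8% of bidirectional regions (91.1 to 94.3) and 81.0% of regions of 1 direction. The IDR-thresholded list keeps peaks by their irreproducible discovery rate, so the selection favoured this agreement, which is no independent check. All 1020 had the same borders in the pseudoreplicated list, which derives from the same alignment. There, 101 further regions met the rule without touching an IDR-thresholded region, with a median fold of 3.76 and width of 325 bp, and 28 of these lay at pairs with no member.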

How the data were processed

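ATAC-seq of 2 technical replicates of 1 biological replicate was deposited as 3 peak lists on mm10. Per the labels and the text files with the samples, all lists derive from 1 alignment. Not stated there were the caller, read filters, the Tn5 shift and the depth. Each deposited peak has a fold enrichment (a linear ratio over an unstated background), a −log10 p-value and q-value, and a score up to 1000, as the authors' peak caller or IDR ranking gave them. The column order of the deposited lists and their values gave these units.

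Overlapping or touching peaks of the IDR-thresholded list (thresholded on the irreproducible discovery rate) were merged, and fold and summit of a region are those of its strongest peak by fold. Starts were those of protein-coding transcripts (GENCODE M21). Divergent means that the minus-strand start lies left of the plus-strand start. CpG ratios used 500 bp and motifs 100 bp on either side of the summit, on both strands, in GRCm38.p6. For pairs and other genes CpG was centred on the midpoint or the gene's 5′ end. Counts were made in Python 3.11.15 with numpy 2.4.6 and scipy 1.17.1 and tested on simulated data. With 1 group there was no test across samples and no p-value.

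Named pairs were the 12 of greatest and 6 of lowest fold, the 5 widest, the 5 of shortest and of longest distance, those nearest the limits, the textbook pairs, all immune pairs, up to 5 of each other list and the closed pairs of shortest distance. The text names part of these, and a few are not reported here. Closed members of the lists, Foxp3 and the last printed sequences were chosen after their values were seen. Members, gene lists and motifs were chosen with earlier results of these data known. The alternatives were other lists, limits, starts and windows.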

Additional observations from a re-analysis of the deposited data

How the results depend on the processing

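With 1 group of pooled lists, leaving out a replicate could not be done. No paired analysis was possible because the technical replicates share 1 group and the lists do not separate them. The number of bidirectional regions stayed between 713 and 1156, within 1.5 times the reported 1020, under all 8 alternatives to the list or rule. In every one of these 8 the median fold, width and share with more than 1 summit stayed above those of regions of 1 direction. Values that moved beyond their counting interval follow. In the pseudoreplicated list, bidirectional regions were 8.05% of promoter regions, 91.6% of pairs were open, the median fold was 16.4, the width 964 bp, the summit lay between the starts in 52.2%, and 82.0% had more than 1 summit. In the upper 50% of regions by fold the share was 11.5%, 73.0% of pairs were open, the median fold was 18.8 (18.5 in regions of 1 direction) and 60.2% of summits lay between the starts. With starts at most 500 bp apart the share was 8.67%, and with starts up to 2000 bp apart 86.9% of pairs were open. With the summit within 500 bp of both starts the share was 8.86%, the median fold 17.6 and 60.5% of summits lay between the starts. With only the 5′ end of each gene as its start, the share was 7.68% and 91.3% of pairs were open; 339 members have genes whose records overlap at alternative starts. With overlapping starts counted, the share was 10.7%, 86.9% of pairs were open and 48.4% of summits lay between the starts. A match to any motif was found in 90.3% of members within 100 bp of the summit, 76.3% within 50 bp and 97.4% within 250 bp. The causes of these shifts were not tested beyond the changed rule. Depth per library is unknown, so a closed pair and too few reads cannot be told apart, and 1 animal gives no spread.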
